A study of Caenorhabditis elegans with 10 samples.

Results

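The F-box A family of Caenorhabditis elegans was followed in RNA sequencing of embryos exposed to high salt. Members were all protein-coding genes of the deposited table whose name is fbxa followed by a number, which gave 192 of 45461 genes. Of these, 115 reached 1 CPM (reads of a gene relative to the size of its library) or more in 2 or more of the 10 libraries and were tested, together with 14802 genes in all. The libraries form 5 groups of 2, all taken 3 hours after egg preparation. In the group N2 50 mM, wild-type N2 worms and their offspring both stayed on 50 mM NaCl. In N2 500 mM, embryos of such parents were moved to 500 mM NaCl. The groups lin-45 50 mM and lin-45 500 mM were treated the same way but carried lin-45(n2018), a mutant allele of the RAF kinase gene of the RAS pathway. In N2 300-500 mM, here called preconditioned, the N2 parents had been kept on 300 mM NaCl before the eggs went to 500 mM. Whole embryos were measured, so fewer cells of a type and less RNA per cell cannot be told apart.

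F-box proteins are the substrate-binding subunits of SCF ubiquitin ligases. The F-box binds a Skp1-related adaptor (an SKR protein in C. elegans), the adaptor binds a cullin, and the rest of the F-box protein selects the target that is ubiquitinated. Nematodes carry a large number of F-box genes, and in the F-box A branch a second domain shared with FOG-2, a regulator of hermaphrodite sperm formation, follows the F-box. Roles from genetics are known for few members. FBXA-158 and FBXA-75 act with the cullin CUL-6 and the adaptors SKR-3, SKR-4 and SKR-5 in a ligase of the intracellular pathogen response, a transcriptional programme to microsporidia, virus and heat. For the members described below, "F-box A gene" states the family and no further role.

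Libraries held 22138098 to 34585489 counts, of which 0.0603% to 0.0903% fell on the family. The lin-45 transcript was present in all 10 libraries at 81.5 to 119.1 CPM, and since the labels name an allele and not a deletion its level does not check the genotype. Markers of epidermis, muscle, pharynx and neurons were all detected, summed markers of adult worms stayed at or below 10.7 CPM, and summed sperm markers stayed at or below 7.85 CPM. The preconditioned libraries were the least alike: over tested members the root-mean-square log2 difference between the replicates was 0.401 there and 0.247 to 0.336 in the other groups, and over all tested genes 0.478 against 0.202 to 0.327. On the log2(CPM + 0.5) scale the member furthest apart was fbxa-215, at 10.9 CPM in preconditioned replicate 1 and 2.72 CPM in replicate 2.

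Most members were transcribed at a low level. The median of the mean CPM was 3.48 for the 115 tested members and 19.1 for all tested genes. Only 16 members averaged at least 10 CPM, 20 lay between 5 and 10, 65 between 1 and 5, and 14 passed the filter with a mean under 1 CPM. Of the 77 untested members, 6 had no count in any library, 15 had 1 to 9 counts over the 10 libraries, 43 had 10 to 99 and 13 had at least 100. The members just inside the filter were fbxa-36, fbxa-57, fbxa-94 and fbxa-183, with second-highest libraries at 1.01, 1.03, 1.07 and 1.09 CPM, and those just outside were fbxa-71, fbxa-163, fbxa-182 and fbxa-42, at 0.998, 0.998, 0.979 and 0.975 CPM. Members could pass through a single group, which 3 did (1 through N2 50 mM and 2 through lin-45 50 mM), while 77 reached 1 CPM in all 5 groups. Others passed only through the salt level where they were high. Before TMM scaling, fbxa-44, fbxa-72 and fbxa-190 reached 1 CPM only in groups on 50 mM, and fbxa-103 and fbxa-135 only in groups on 500 mM. Counts over the members that passed are therefore descriptions. Close copies can also share reads: 79 tested members had an expected count that was not whole in at least 1 library, 11 in all 10, and 36 had whole counts throughout.

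On the length-scaled FPKM scale, which allows levels of different genes to be compared, fbxa-24 stood first with a mean over the libraries of 107.1. Next came fbxa-59 at 34.7, fbxa-37 at 19.9, fbxa-105 at 18.7 and fbxa-167 at 17.2 FPKM. The gene fbxa-24 (F54D10.2, chromosome II, 3816517 to 3818240 in ce10) alone held 22.5% of the family's CPM. It is a short member, with 219 codons in 2 coding exons against medians of 314 codons and 3 coding exons over the 169 members matched in the annotation. Its expected counts were not whole in any library, so a part of its reads was shared with other genes.

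Summed over all 192 members, the family stood at 744 ± 26.5 CPM for N2 at 50 mM (SD, n = 2 in every group), 901 ± 58.0 for lin-45 at 50 mM, 678 ± 22.8 for N2 at 500 mM, 882 ± 25.2 for lin-45 at 500 mM and 606 ± 69.9 for preconditioned embryos. Of the tested members, 52 had their highest mean with lin-45 at 50 mM, 27 with lin-45 at 500 mM, 14 with N2 at 50 mM, 13 with preconditioning and 9 with N2 at 500 mM. The lowest mean belonged to N2 at 500 mM in 40 members and to preconditioned embryos in 28, but to lin-45 at 500 mM in only 8. Such counts were not made over all tested genes, of which 33.2% were higher and 21.1% lower in lin-45 than in N2 at 50 mM. Without fbxa-24, whose own level rose with salt, the sums were 625 ± 12, 779 ± 44.6, 468 ± 18.6, 620 ± 4.38 and 461 ± 35.9 CPM in the same order. With fbxa-24 left out, both N2 groups at 500 mM thus lay below both groups at 50 mM.

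**Figure D1:**
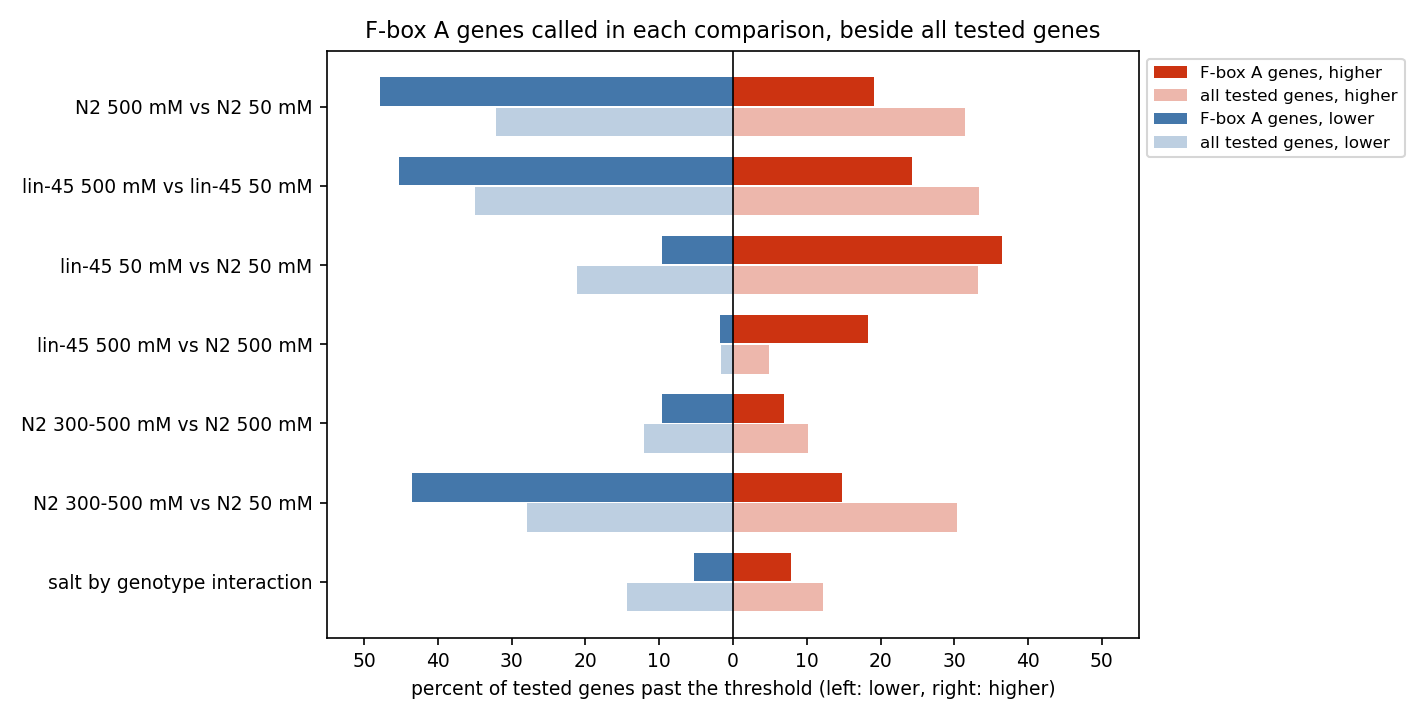
Percent of tested genes past the threshold (edgeR adjusted p under 0.05) in each comparison, lower to the left and higher to the right, for the 115 F-box A genes (dark bars) and all 14802 tested genes (pale bars). After salt in N2, 47.8% of the F-box A genes were lower and 19.1% were higher, beside 32.1% and 31.4% of all tested genes.

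The first question of the design is how embryos respond to 500 mM NaCl. In N2 more members fell than rose: 55 of 115 members fell (47.8%, against 32.1% of all tested genes) and 22 rose (19.1%, against 31.4%). The median log2 change was -0.57 for the members and -0.01 for all tested genes. In lin-45 embryos 52 members fell (45.2%, against 34.9% of all tested genes) and 28 rose (24.3%, against 33.4%), with medians of -0.44 and -0.02. Calls are those of edgeR's quasi-likelihood test with Benjamini-Hochberg adjustment over all tested genes. Without any filter on low counts, 186 members entered the fit, of which 67 fell and 20 rose in N2, and 58 fell and 30 rose in lin-45. Of all 21997 genes in that fit, 26.8% fell and 18.5% rose in N2, and 24.5% fell and 24.1% rose in lin-45. Restricted to the 36 members with whole counts in every library, 17 fell and 5 rose in N2, and 15 fell and 7 rose in lin-45.

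The 2 salt comparisons share no library. Of the 115 members, 48 fell in both strains and 20 rose in both. A further 7 fell in N2 and did not pass in lin-45, 4 fell and 8 rose with a call in lin-45 and none in N2, 2 rose with a call in N2 and none in lin-45, while 26 passed in neither and none passed in opposite directions. Across members the log2 changes of the strains had a Pearson r of 0.878 (115 genes, which are not independent), close to the 0.866 across all 14802 tested genes.

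**Figure D2:**
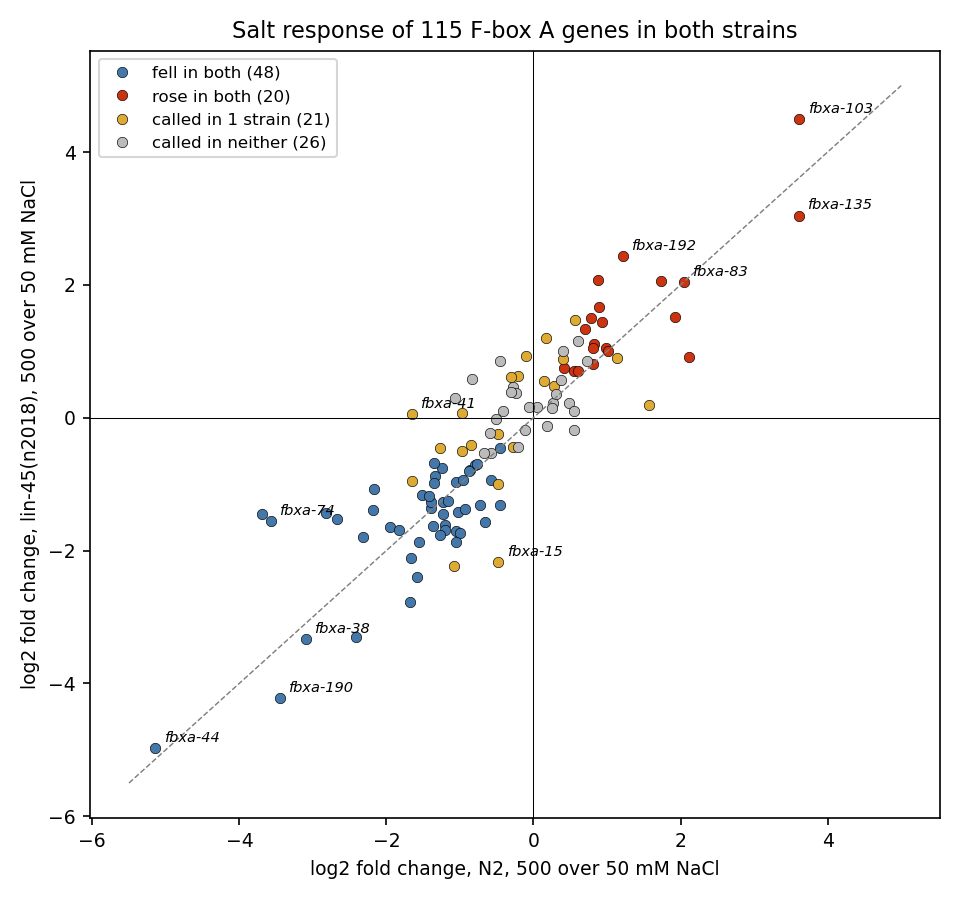
Log2 change from 50 to 500 mM NaCl in N2 (horizontal) and lin-45(n2018) (vertical) for each of the 115 tested F-box A genes, coloured by the strains in which the change passed the threshold, with the dashed line marking equal change. The 48 genes that fell in both strains fill the lower left, with fbxa-44 at -5.14 and -4.97, and the 20 that rose in both fill the upper right, with fbxa-103 at 3.62 and 4.50.

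The member that fell furthest was fbxa-44 (F09C6.2, chromosome V, 16889263 to 16890664 in ce10), an F-box A gene with whole counts in every library. It stood at 5.07 and 7.06 CPM for N2 at 50 mM, 10.5 and 9.34 for lin-45 at 50 mM, 0.133 and 0.211 for N2 at 500 mM, 0.222 and 0.405 for lin-45 at 500 mM, and 0.588 and 0.615 for preconditioned embryos. Both groups at 50 mM were high and all libraries on 500 mM were under 1 CPM, with no overlap. The log2 change was -5.14 ± 0.35 (SE) in N2 (edgeR adjusted p = 5.89e-06) and -4.97 ± 0.31 in lin-45 (edgeR adjusted p = 2.93e-06).

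A similar switch was seen for fbxa-190 on the X chromosome. It had 4.76 and 5.41 CPM for N2 at 50 mM and 12.4 and 10.2 for lin-45 at 50 mM, against 0.532 and 0.379 for N2 at 500 mM, 0.792 and 0.405 for lin-45 at 500 mM, and 0.294 and 0.439 for preconditioned embryos. No library on 500 mM reached 1 CPM. Its log2 change was -3.45 ± 0.33 in N2 (edgeR adjusted p = 3.69e-05) and -4.22 ± 0.32 in lin-45 (edgeR adjusted p = 7.23e-06). On chromosome III, fbxa-38 went from 4.85 and 5.88 CPM for N2 at 50 mM and 6.65 and 7.59 for lin-45 at 50 mM to 0.765 and 0.463 for N2 at 500 mM and 0.729 and 0.676 for lin-45 at 500 mM. Preconditioned embryos held 1.76 and 1.35 CPM, between the other groups. The log2 change of fbxa-38 was -3.10 ± 0.28 in N2 and -3.33 ± 0.27 in lin-45 (edgeR adjusted p = 2.49e-05 and 1.07e-05). The calls of fbxa-44, fbxa-190 and fbxa-38 in both strains remained when any 1 of the 10 libraries was left out.

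The gene fbxa-72 was high in a single group. It had 4.20 and 3.98 CPM for lin-45 at 50 mM, 0.837 and 0.969 for N2 at 50 mM, 0.166 and 0.169 for N2 at 500 mM, 0.380 and 0.439 for lin-45 at 500 mM, and 0.534 and 0.0879 for preconditioned embryos. It fell by 3.31 ± 0.51 on the log2 scale in lin-45 (edgeR adjusted p = 0.000454). In N2 the change of -2.41 ± 0.64 (edgeR adjusted p = 0.0102) did not pass when either N2 500 mM library was left out, where its highest adjusted p was 0.0578.

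Among the 20 members that rose in both strains, fbxa-103 and fbxa-135 averaged under 1 CPM in both groups at 50 mM. The gene fbxa-103 (F09C3.4, chromosome I, 14287859 to 14295886 in ce10) had 0.441 and 0.500 CPM for N2 at 50 mM and 0.139 and 0.275 for lin-45 at 50 mM, against 4.92 and 6.83 for N2 at 500 mM and 5.42 and 4.46 for lin-45 at 500 mM. Preconditioned embryos were intermediate and differed between replicates, at 2.35 and 1.08 CPM. The log2 change of fbxa-103 was 3.62 ± 0.42 in N2 (edgeR adjusted p = 0.000115), a 12.3-fold rise, and 4.50 ± 0.48 in lin-45 (edgeR adjusted p = 5.39e-05).

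For fbxa-135 on chromosome V the values were 0.132 and 0.375 CPM for N2 at 50 mM, 0.416 and 0.618 for lin-45 at 50 mM, 3.46 and 3.20 for N2 at 500 mM, 5.04 and 3.68 for lin-45 at 500 mM, and 2.70 and 3.16 for preconditioned embryos. All 6 libraries on 500 mM lay above all 4 on 50 mM. Its log2 change was 3.61 ± 0.39 in N2 (edgeR adjusted p = 7.71e-05) and 3.04 ± 0.36 in lin-45 (edgeR adjusted p = 9.24e-05). The gene fbxa-83 (Y67A10A.4, chromosome IV) gave the most even rise, from 2.42 and 1.94 CPM for N2 at 50 mM and 2.45 and 2.06 for lin-45 at 50 mM to 8.95 and 8.93 for N2 at 500 mM, 9.44 and 8.99 for lin-45 at 500 mM, and 9.08 and 8.73 for preconditioned embryos. All 6 libraries on 500 mM lay above all 4 on 50 mM, and the log2 change was 2.04 ± 0.16 in each strain (edgeR adjusted p = 1.26e-05 in N2 and 9.71e-06 in lin-45).

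The leading transcript of the family also rose. In CPM, fbxa-24 had 108.7 and 129.3 for N2 at 50 mM, 112.1 and 131.0 for lin-45 at 50 mM, 212.7 and 206.7 for N2 at 500 mM, 276.8 and 247.4 for lin-45 at 500 mM, and 121.2 and 169.2 for preconditioned embryos. Both groups placed directly on 500 mM lay above every other library. The change was 0.82 ± 0.16 in N2 (edgeR adjusted p = 0.0021) and 1.11 ± 0.16 in lin-45 (edgeR adjusted p = 0.000318). Among the other abundant members, fbxa-167 fell by 1.05 ± 0.12 in N2 and by 0.96 ± 0.12 in lin-45 on the log2 scale (edgeR adjusted p = 0.000101 and 0.000136). It had 30 and 27.6 CPM for N2 at 50 mM, 22.9 and 24.7 for lin-45 at 50 mM, 13.3 and 14.5 for N2 at 500 mM, 11.7 and 12.7 for lin-45 at 500 mM, and 18.6 and 22.4 for preconditioned embryos, so the groups at 50 and 500 mM did not overlap in either strain. The longest matched member, fbxa-136 with 1881 codons, fell from 14.1 and 16.4 CPM to 2.93 and 3.20 in N2 and from 10.4 and 10.8 to 2.76 and 3.38 in lin-45, without overlap.

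Salt also raised members that started from a difference between strains. The gene fbxa-127 had 0.485 and 0.750 CPM for N2 at 50 mM, 2.54 and 2.89 for lin-45 at 50 mM, 2.86 and 2.61 for N2 at 500 mM, 5.29 and 4.97 for lin-45 at 500 mM, and 0.908 and 2.02 for preconditioned embryos. Its lowest group was N2 50 mM and its highest lin-45 500 mM, with log2 changes of 2.11 ± 0.39 in N2 (edgeR adjusted p = 0.00149) and 0.91 ± 0.33 in lin-45 (edgeR adjusted p = 0.0344). The call in lin-45 was lost in 5 of the 10 fits with 1 library left out, at an adjusted p of up to 0.122: those without either lin-45 50 mM library, either N2 500 mM library or lin-45 500 mM replicate 1. The gene fbxa-137 had 9.96 and 8.56 CPM for N2 at 50 mM, 1.39 and 3.78 for lin-45 at 50 mM, 18.1 and 15.9 for N2 at 500 mM, 11.2 and 11.2 for lin-45 at 500 mM, and 17 and 17.4 for preconditioned embryos. Here lin-45 50 mM was the lowest group, and the change in lin-45 was 2.07 ± 0.32 (edgeR adjusted p = 0.000466). In N2 the change of fbxa-137 was 0.88, and 0.77 to 0.99 with 1 library left out. Its call in N2 was lost without either N2 50 mM library or either N2 500 mM library.

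The abundant fbxa-105 was highest in lin-45 500 mM and lowest in preconditioned embryos, both without overlap with the other groups. It had 18.3 and 20 CPM for N2 at 50 mM, 17.4 and 20.6 for lin-45 at 50 mM, 16.5 and 16.7 for N2 at 500 mM, 30.7 and 28.4 for lin-45 at 500 mM, and 12.8 and 15.3 for preconditioned embryos. Only lin-45 500 mM lay above the 20.6 CPM of lin-45 50 mM replicate 2, with a change of 0.63 ± 0.12 in lin-45 (edgeR adjusted p = 0.00182) and of -0.21 ± 0.13 in N2 (edgeR adjusted p = 0.177).

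**Figure D3:**
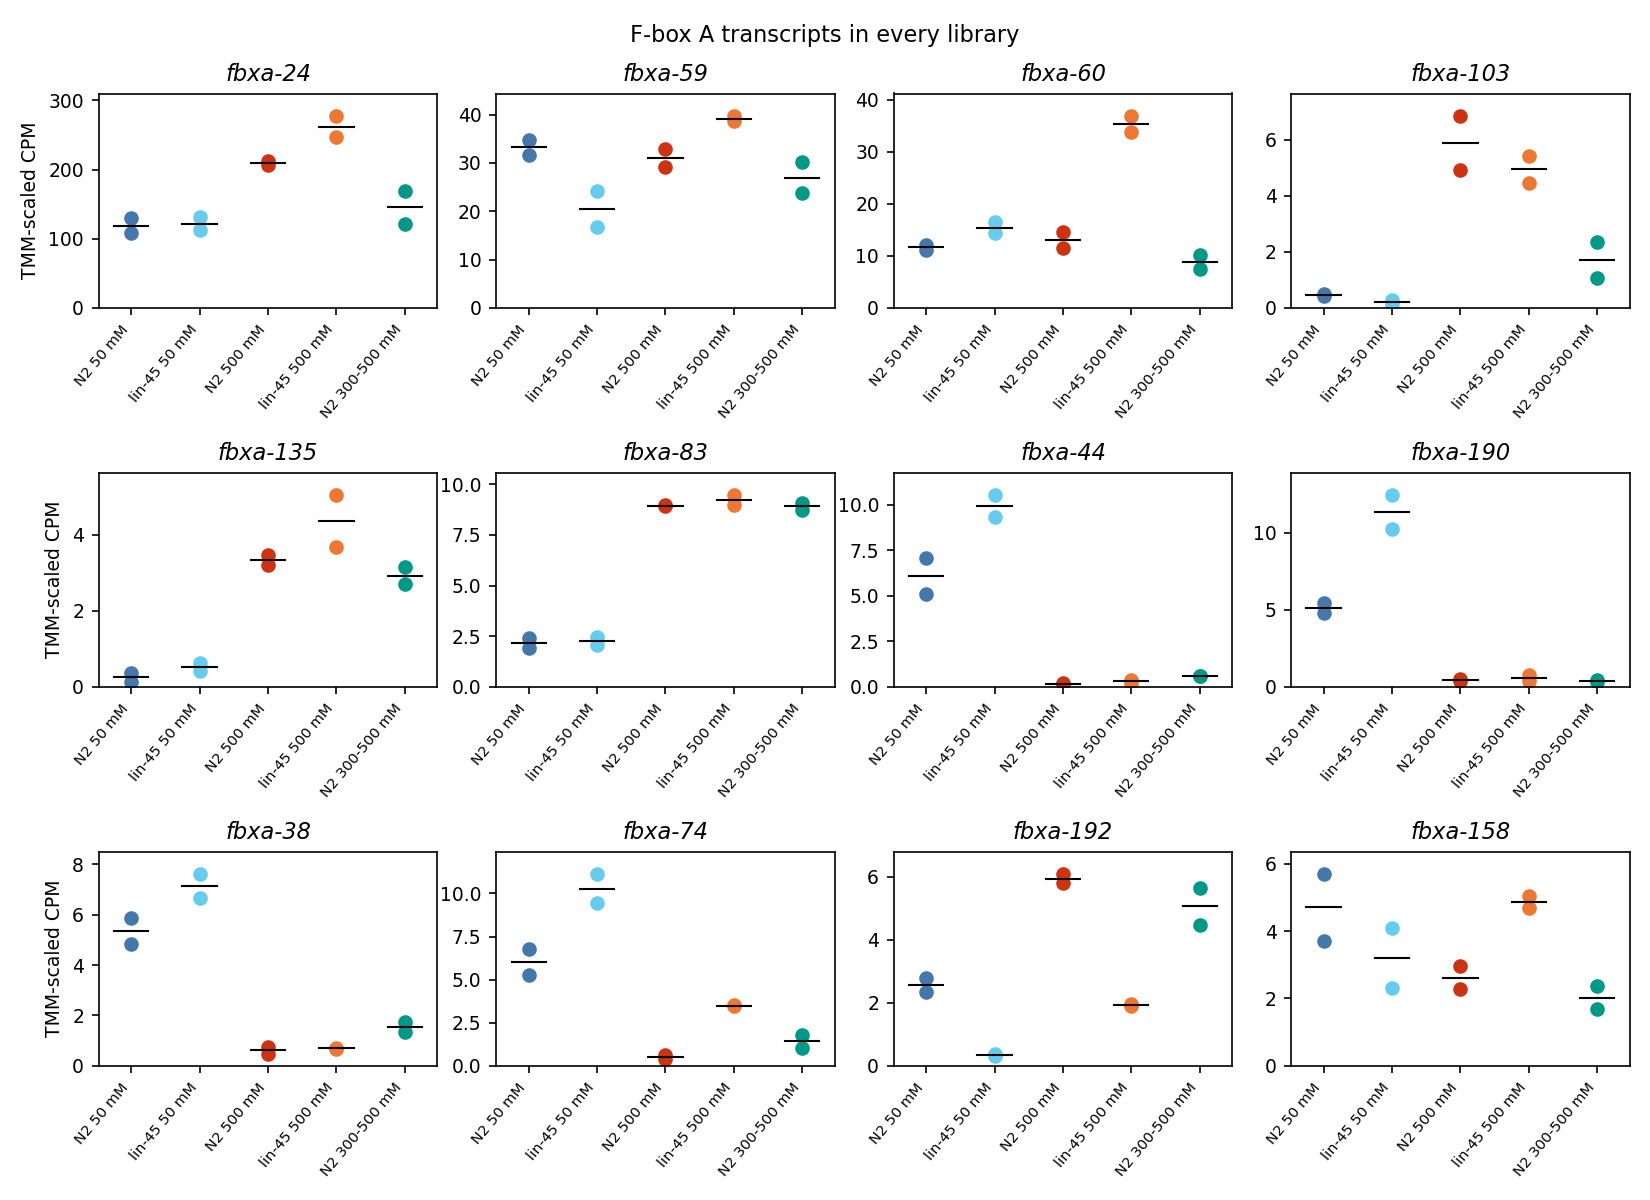
TMM-scaled CPM of 12 F-box A genes in every library, with 1 point per library, a bar at the mean of each group's 2 libraries and a linear axis from 0 in each panel. The genes fbxa-44, fbxa-190 and fbxa-38 are high only on 50 mM, fbxa-135 and fbxa-83 are high in all 6 libraries on 500 mM, and fbxa-24 reaches 276.8 CPM for lin-45 at 500 mM.

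The members lie close together in the genome. With gaps of at most 20 kb allowed, 135 of the 192 fell into 27 runs of neighbours. Chromosome V carries 75 members (45 tested) and chromosome III carries 68 (42 tested), while chromosomes II, X, I and IV carry 19, 17, 7 and 6. In N2, where 32.1% of all tested genes fell and 31.4% rose, 29 of the 42 tested members on chromosome III fell and 2 rose. On chromosome V 18 of 45 fell and 10 rose. On chromosome I, in contrast, 1 of 6 fell and 4 rose, and on chromosome IV 2 of 3 rose and none fell, numbers too small for a comparison between chromosomes, which was not tested.

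The largest run is on chromosome III from 1236006 to 1349412 in ce10. It spans 113 kb and holds 30 F-box A genes among 37 protein-coding genes, including fbxa-75. Of its 21 tested members, 17 fell and none rose in N2, and 16 fell and none rose in lin-45, with median log2 changes of -1.16 and -0.94. Over all tested genes, 32.1% fell and 31.4% rose in N2, and 34.9% fell and 33.4% rose in lin-45. Among the 94 tested members outside the run, 38 fell and 22 rose in N2, with a median of -0.30, and 36 fell and 28 rose in lin-45, with a median of 0.09. The 4 members of the run that did not pass in N2 were fbxa-50, fbxa-36, fbxa-80 and fbxa-15.

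Summed over its 30 members, the run stood at 139.9 and 152.4 CPM for N2 at 50 mM, 215.6 and 230.5 for lin-45 at 50 mM, 71.8 and 72.0 for N2 at 500 mM, 114.6 and 120.4 for lin-45 at 500 mM, and 68.9 and 80.9 for preconditioned embryos. The 4 groups of N2 and lin-45 placed directly on their medium did not overlap, and preconditioned embryos overlapped N2 500 mM. Within the run the change ran from -2.19 for fbxa-151 to 0.49 for fbxa-50 in N2. The 1 other tested coding gene in the run is Y82E9BL.12, whose model overlaps that of the untested fbxa-20 on the opposite strand. It rose by 1.28 on the log2 scale in N2, while its change of 0.28 in lin-45 did not pass. Neighbours of this kind can share reads: 7 of the 21 tested members had whole counts in every library, and of those 6 fell in N2 and 4 in lin-45.

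**Figure D4:**
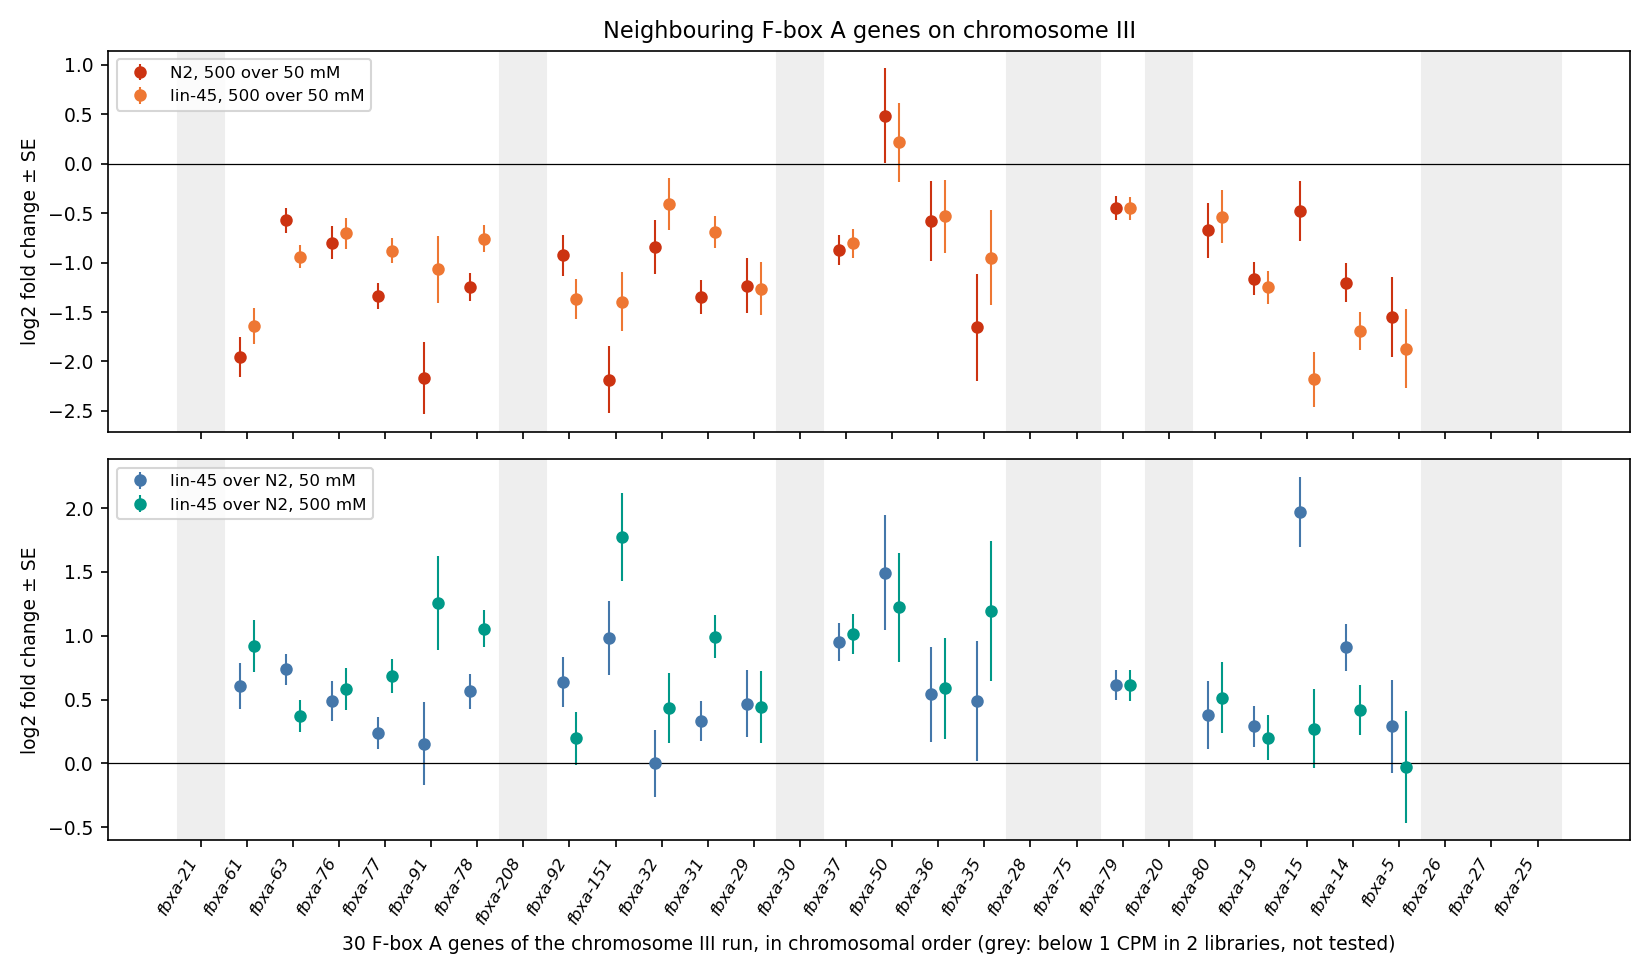
Log2 change ± SE for the 30 F-box A genes of the chromosome III run, in chromosomal order. The upper panel shows 500 over 50 mM NaCl in each strain and the lower panel lin-45 over N2 at each salt level, with untested genes shaded. Of the 21 tested genes, 17 fell with salt in N2 and 11 were higher in lin-45 than in N2 at 50 mM.

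A second run on chromosome III, 933452 to 963515, holds 11 members, of which 8 were tested. In N2, 6 of them fell and none rose, and in lin-45 6 fell and 2 rose. Those 2 were fbxa-59 and fbxa-60, which lie next to each other. In the third run on this chromosome, 2217193 to 2310965 with 16 members, only 6 were tested and directions were mixed: in N2 3 fell, among them fbxa-38, and 2 rose. On chromosome II the run with fbxa-158 holds 9 members from 1606596 to 1624679, of which 3 were tested. In it fbxa-166 fell in both strains and fbxa-162 rose in both, so neighbours did not move together throughout the family.

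The second question of the design is how lin-45 embryos differ from N2 in the same medium. At 50 mM, 42 of 115 members were higher in lin-45 (36.5%, against 33.2% of all tested genes) and 11 were lower (9.57%, against 21.1%). The median log2 difference was 0.36 for the members and 0.16 for all tested genes. At 500 mM, 21 were higher (18.3%, against 4.84% of all tested genes) and 2 were lower (1.74%, against 1.65%), with medians of 0.34 and 0.00. Of the members, 16 were higher at both salt levels, 2 were lower at both, 26 passed as higher at 50 mM only and 5 at 500 mM only. The 2 comparisons share no library, and across members the differences had a Pearson r of 0.552, beside 0.483 across all tested genes. Leaving out N2 50 mM replicate 1 took the 53 calls at 50 mM to 26. The 23 calls at 500 mM became 6 or 7 without N2 500 mM replicate 1 or 2, and 8 or 13 without lin-45 500 mM replicate 1 or 2. Calls over all tested genes also moved in these fits, from 54.3% to 35.2% at 50 mM without N2 50 mM replicate 1. At 500 mM they went from 6.49% to 1.82% or 1.67% without an N2 500 mM library, and to 1.69% or 2.61% without a lin-45 500 mM library.

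In the chromosome III run of 30, 11 of 21 tested members were higher in lin-45 at 50 mM and 7 at 500 mM. Of all tested genes, 33.2% and 4.84% were higher. No tested member of the run was lower at either level. Of the 7 tested members with whole counts in every library, only 1 was higher at 50 mM and 1 at 500 mM. Their median log2 differences were 0.29 and 0.58, so most of these calls lie on members that can share reads. The abundant member fbxa-37 lies in this run. It had 18.2 and 17.6 CPM for N2 at 50 mM, 33.9 and 35.1 for lin-45 at 50 mM, 10.5 and 8.93 for N2 at 500 mM, 20.2 and 19.3 for lin-45 at 500 mM, and 9.11 and 12.6 for preconditioned embryos. In both media the lin-45 libraries lay above the N2 libraries, and in both strains the libraries on 500 mM lay below those on 50 mM. The difference between strains was 0.95 ± 0.15 at 50 mM (edgeR adjusted p = 0.000947) and 1.02 ± 0.15 at 500 mM (edgeR adjusted p = 0.0067). At 500 mM this call did not pass without N2 500 mM replicate 2 or lin-45 500 mM replicate 1, where the highest adjusted p was 0.0755.

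The largest difference at 500 mM among members past the threshold with at least 2 CPM in the higher group was that of fbxa-74 on chromosome III. Its values were 5.29 and 6.78 CPM for N2 at 50 mM, 9.42 and 11.1 for lin-45 at 50 mM, 0.399 and 0.632 for N2 at 500 mM, 3.49 and 3.51 for lin-45 at 500 mM, and 1.04 and 1.79 for preconditioned embryos. It fell in both strains but stayed above 3 CPM in lin-45, with a difference of 2.78 ± 0.33 at 500 mM (edgeR adjusted p = 0.00214). A difference of 1.69 ± 0.25 was found for fbxa-88 on chromosome V, which had 0.665 and 0.590 CPM for N2 at 500 mM and 1.96 and 2.13 for lin-45 at 500 mM, without overlap. Its edgeR adjusted p was 0.00566, and it did not pass without either N2 500 mM library, where the highest adjusted p was 0.0629.

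Fewer members were lower in lin-45. The gene fbxa-192 on chromosome V had 2.78 and 2.34 CPM for N2 at 50 mM, 0.323 and 0.378 for lin-45 at 50 mM, 5.79 and 6.07 for N2 at 500 mM, 1.90 and 1.96 for lin-45 at 500 mM, and 5.64 and 4.48 for preconditioned embryos. It rose with salt in both strains and was lower in lin-45 in both media, by -2.84 ± 0.26 at 50 mM (edgeR adjusted p = 0.000116) and -1.62 ± 0.20 at 500 mM (edgeR adjusted p = 0.00229). The other member lower in both media was fbxa-6, with 17.3 and 18.5 CPM for N2 at 50 mM, 7.99 and 8.52 for lin-45 at 50 mM, 10.4 and 9.27 for N2 at 500 mM, and 4.91 and 4.70 for lin-45 at 500 mM. Its groups did not overlap in either medium, and the differences were -1.12 ± 0.14 and -1.03 ± 0.14 (edgeR adjusted p = 0.00032 and 0.0046). The calls of fbxa-192, fbxa-6 and fbxa-74 at 500 mM remained with any 1 library left out.

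The salt response itself was compared between the strains by the interaction of salt and genotype. It passed for 15 members, with a more positive change in lin-45 for 9 (7.83%, against 12.2% of all tested genes) and a more negative one for 6 (5.22%, against 14.3%). With upper-quartile scaling the split became 12 and 3, and that scaling shifted the median interaction of all genes by 0.104 on the log2 scale. With 1 library left out, the count fell to 1 without N2 50 mM replicate 1, 7 without N2 50 mM replicate 2 and 5 without lin-45 50 mM replicate 1. It was 7 and 2 without N2 500 mM replicates 1 and 2, and 3 and 6 without lin-45 500 mM replicates 1 and 2. It was 22 without preconditioned replicate 1 and 25 without replicate 2, libraries in neither arm of this contrast. Calls over all tested genes moved too: 26.4% passed with all libraries, 5.29% without N2 50 mM replicate 1, 7.51% to 16.7% in the other fits named with fewer calls, and 39.3% and 35.7% without preconditioned replicates 1 and 2. None of the 11 calls among the named members remained in all 10 such fits, so each of them was lost in at least 1.

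Among the 15 were the neighbours fbxa-59 and fbxa-60. Expected counts were not whole in 10 libraries for fbxa-59 and in 6 for fbxa-60, so a part of their reads was shared. The model of fbxa-59 also overlaps the pseudogene T12B5.9 on the same strand. The gene fbxa-59 (T12B5.8, chromosome III) had 34.7 and 31.7 CPM for N2 at 50 mM, 16.8 and 24.1 for lin-45 at 50 mM, 32.8 and 29.2 for N2 at 500 mM, 39.6 and 38.7 for lin-45 at 500 mM, and 23.8 and 30.1 for preconditioned embryos. Its N2 libraries overlapped between the media while its lin-45 libraries separated, and the interaction was 1.03 ± 0.24 (edgeR adjusted p = 0.019). The gene fbxa-60 (T12B5.10) had 12.1 and 11.2 CPM for N2 at 50 mM, 14.4 and 16.5 for lin-45 at 50 mM, 14.6 and 11.6 for N2 at 500 mM, 33.9 and 36.8 for lin-45 at 500 mM, and 7.51 and 10.1 for preconditioned embryos. Only lin-45 500 mM exceeded 30 CPM, and the interaction was 1.02 ± 0.23 (edgeR adjusted p = 0.0175). Neither call passed without N2 50 mM replicate 1 or N2 500 mM replicate 2, and that of fbxa-59 was also lost without lin-45 500 mM replicate 1, with highest adjusted p of 0.0778 for fbxa-59 and 0.0739 for fbxa-60.

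The gene fbxa-41 on the X chromosome had 5.24 and 4.34 CPM for N2 at 50 mM, 3.46 and 4.33 for lin-45 at 50 mM, 1.66 and 1.35 for N2 at 500 mM, 4.09 and 4.05 for lin-45 at 500 mM, and 2.75 and 3.75 for preconditioned embryos. It fell in N2 by 1.66 ± 0.24 on the log2 scale and had a change of 0.06 ± 0.22 in lin-45. The interaction was 1.72 ± 0.33 (edgeR adjusted p = 0.0105), and it did not pass without N2 50 mM replicate 1, where the adjusted p was 0.0512. In the opposite direction, fbxa-15 had 0.881 and 1.00 CPM for N2 at 50 mM, 3.97 and 3.47 for lin-45 at 50 mM, 0.565 and 0.801 for N2 at 500 mM, 0.824 and 0.811 for lin-45 at 500 mM, and 0.240 and 0.146 for preconditioned embryos. Only lin-45 50 mM exceeded 3 CPM, and the interaction was -1.70 ± 0.41 (edgeR adjusted p = 0.021), lost in 6 of the 10 fits with 1 library left out at an adjusted p of up to 0.0946.

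The third question is whether parents kept on 300 mM NaCl change the state of embryos on 500 mM. Between preconditioned and N2 500 mM embryos, 8 members were higher (6.96%, against 10.2% of all tested genes) and 11 lower (9.57%, against 12%), with medians of 0.02 for the members and 0.05 for all tested genes. Instead of these 19, 1 member was called when the fit held only the libraries of the groups compared, and leaving out N2 500 mM replicate 1 or 2 took the count to 8 or 6. It was 16 without preconditioned replicate 1 and 24 without replicate 2. Over all tested genes 22.2% were called, 8.53% with only the libraries compared, 10.6% or 9.76% without an N2 500 mM library, and 28.8% or 28.5% without a preconditioned library. Of the 14 calls among the named members, that of fbxa-64 on chromosome V remained with any 1 library left out. It had 2.69 and 2.32 CPM for N2 at 500 mM and 5.02 and 5.59 for preconditioned embryos, against 7.40 and 8.47 for N2 at 50 mM, 12.3 and 14.9 for lin-45 at 50 mM, and 3.20 and 3.07 for lin-45 at 500 mM. Preconditioned embryos thus lay between the N2 groups without overlap, and the difference from N2 500 mM was 1.08 ± 0.17 (edgeR adjusted p = 0.00339).

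Lower in preconditioned embryos than at 500 mM without preconditioning were fbxa-103, described above, by -1.76 ± 0.36 (edgeR adjusted p = 0.00974), and fbxa-98 by -1.13 ± 0.24 (edgeR adjusted p = 0.0121). The gene fbxa-98 on chromosome IV had 2.29 and 2.56 CPM for N2 at 50 mM, 4.34 and 4.71 for lin-45 at 50 mM, 4.66 and 5.18 for N2 at 500 mM, 9.35 and 8.75 for lin-45 at 500 mM, and 1.66 and 2.84 for preconditioned embryos, which overlapped N2 50 mM. Neither call passed without N2 500 mM replicate 2, where the adjusted p was 0.0699 for fbxa-103 and 0.0711 for fbxa-98.

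Against N2 50 mM, 50 members were lower in preconditioned embryos (43.5%, against 27.9% of all tested genes) and 17 were higher (14.8%, against 30.4%), with medians of -0.47 and 0.04. This comparison shares its N2 50 mM libraries with the salt comparison in N2, so only each comparison's own values are given. The change of fbxa-190 was -3.79 ± 0.33 here and -3.45 ± 0.33 for N2 500 mM. For fbxa-44 it was -3.33 ± 0.28 here and -5.14 ± 0.35 there, and for fbxa-135 it was 3.42 ± 0.39 here and 3.61 ± 0.39 there. In the chromosome III run of 30, 16 of 21 tested members were lower and none was higher.

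The member with a known role, fbxa-158 (C08E3.10, chromosome II, 1619803 to 1621268 in ce10), had 5.68 and 3.72 CPM for N2 at 50 mM, 2.31 and 4.09 for lin-45 at 50 mM, 2.96 and 2.28 for N2 at 500 mM, 4.69 and 5.03 for lin-45 at 500 mM, and 1.68 and 2.37 for preconditioned embryos. Its change with salt was -0.83 ± 0.33 in N2 (edgeR adjusted p = 0.0516) and 0.59 ± 0.32 in lin-45 (edgeR adjusted p = 0.132). Only preconditioned against N2 50 mM passed, at -1.21 ± 0.33 (edgeR adjusted p = 0.0126), and not without N2 50 mM replicate 1, where the adjusted p was 0.0922. The other such member, fbxa-75, had 121 counts over all libraries and at most 0.661 CPM, and was not tested.

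Their partners in that ligase were measured better. The cullin gene cul-6 had 12 and 11.8 CPM for N2 at 50 mM, 22 and 23.2 for lin-45 at 50 mM, 3.13 and 2.99 for N2 at 500 mM, 5.96 and 6.25 for lin-45 at 500 mM, and 4.60 and 4.54 for preconditioned embryos. No 2 groups overlapped: levels were lower on 500 mM and higher in lin-45, as in the chromosome III run. Its change with salt was -1.96 ± 0.12 in N2 and -1.89 ± 0.11 in lin-45 (edgeR adjusted p = 2.65e-06 and 1.78e-06). The adaptor gene skr-3 went the same way, from 108.6 and 108.9 CPM to 39.2 and 33.0 in N2 and from 148.2 and 152.0 to 58.3 and 56.4 in lin-45. The adaptor gene skr-5 rose instead, by 0.75 ± 0.17 in N2 and 1.41 ± 0.16 in lin-45 (edgeR adjusted p = 0.00433 and 7.69e-05). Its model overlaps that of fbxa-188 on the opposite strand, and the strand setting of the counts is not given. For skr-4 the changes were 0.01 ± 0.21 in N2 (edgeR adjusted p = 0.973) and -0.86 ± 0.20 in lin-45 (edgeR adjusted p = 0.00447).

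Over the whole list of SCF core genes, which are the cullins cul-1 and cul-6, the RING subunits and the SKR adaptors, 12 of 23 tested rose and 2 fell in N2, and 13 rose and 6 fell in lin-45. For comparison, 31.4% of all tested genes rose and 32.1% fell in N2, and 33.4% rose and 34.9% fell in lin-45. The 2 that fell in N2 were cul-6 and skr-3. Of 12 regulators of cullin activity, including the exchange factor cand-1 and the COP9 signalosome genes, 5 rose and 1 fell with salt in N2, and 10 were higher and none lower in lin-45 at 50 mM, where 33.2% of all tested genes were higher. Of 7 ubiquitin supply genes, 3 rose and 3 fell in each strain. The 5 of 12 and 3 of 7 lie near the shares over all tested genes. Among 8 F-box genes with better known roles outside the family, 4 rose in N2 and 7 in lin-45, and none fell. These 8 include 2 relatives of the F-box A genes. The first, fog-2, lay between 1.44 and 3.39 CPM in all libraries and passed in no comparison. The second, ftr-1, rose by 1.04 ± 0.32 in N2 (edgeR adjusted p = 0.0208), a call lost without N2 50 mM replicate 2 or N2 500 mM replicate 2 at an adjusted p of up to 0.143.

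The 2 other large nematode F-box families had more genes that rose than fell, unlike the F-box A genes. Of 110 F-box B genes 80 were tested, and 63 rose and 2 fell with salt in N2, with a median log2 change of 3.38. In lin-45 embryos, 73 rose and 1 fell, with a median of 4.12. Without a filter, 109 F-box B genes entered the fit, of which 73 rose and 3 fell in N2. Of 38 tested F-box C genes 19 rose and 6 fell in N2, with a median of 1.16, and 22 rose and 6 fell in lin-45, with a median of 1.19. The summed level of F-box B was 67.9 ± 11.9 CPM for N2 at 50 mM and 472 ± 69.4 for N2 at 500 mM (n = 2 each), while preconditioned replicates 1 and 2 stood far apart at 610.5 and 215.5 CPM. Of 31 tested bath genes, adaptors that pair with another cullin, 12 rose and 4 fell in N2. These are 38.7% and 12.9%, against 31.4% and 32.1% of all tested genes. Without a filter, 37 bath genes entered the fit, of which 7 rose and 5 fell, beside 18.5% and 26.8% of all genes in that fit. The families were set side by side as counts and medians, and the difference between them was not tested.

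**Figure D5:**
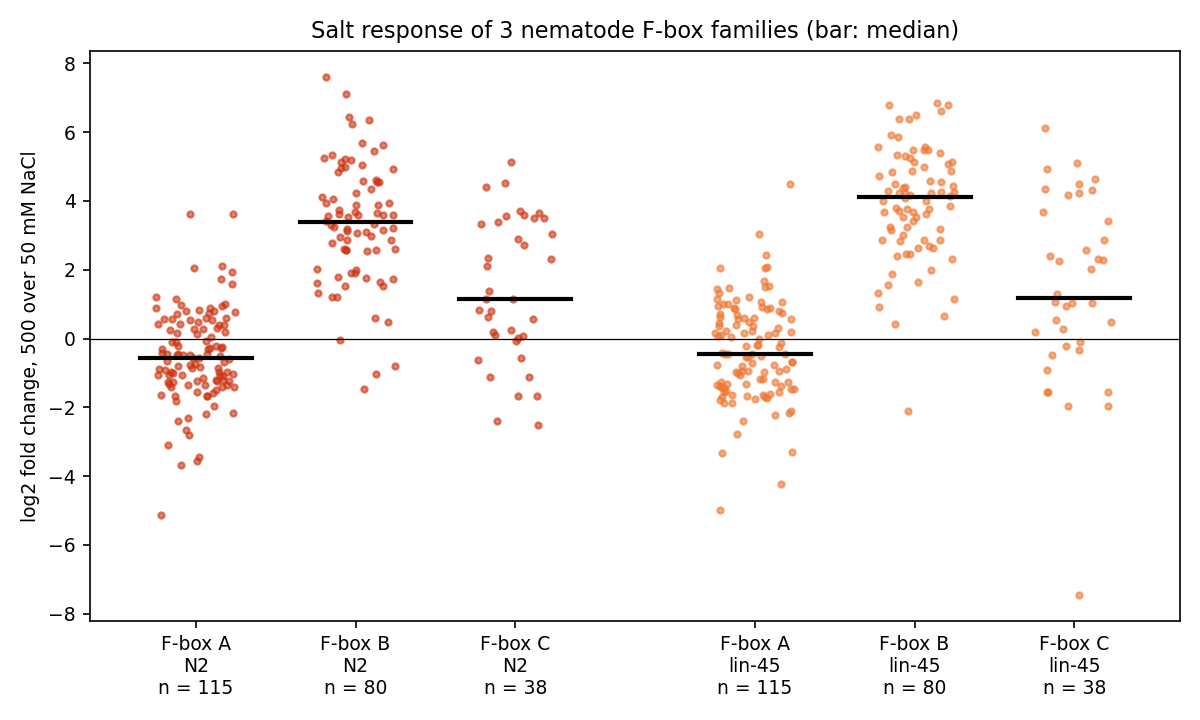
Log2 change from 50 to 500 mM NaCl for each tested gene of the F-box A, B and C families in N2 (left) and lin-45 (right), with a bar at the median of each family. F-box A medians are -0.57 and -0.44, F-box B medians 3.38 and 4.12, and F-box C medians 1.16 and 1.19.

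Markers of cell types and stage also differed between the groups. Summed levels of 7 intestine markers ranged over 1848 to 2003 CPM for N2 at 50 mM, 2523 to 2651 for lin-45 at 50 mM, 902.5 to 981.3 for N2 at 500 mM, 1181 to 1202 for lin-45 at 500 mM, and 888.0 to 1014 for preconditioned embryos. This is the order of the groups seen for the chromosome III run, with lin-45 above N2 and 50 mM above 500 mM. Mean summed neuron markers had it too. They stood at 1313 CPM for N2 and 1417 for lin-45 at 50 mM, and at 901.5 and 994.7 at 500 mM. Pharynx means were also higher in lin-45 in each medium and lower at 500 mM in each strain (3376, 3740, 2804 and 3689 CPM in the same order). They did not have the full order of the run, since lin-45 at 500 mM lay above N2 at 50 mM. The lin-45 libraries also overlapped between media. Muscle means were higher in lin-45 but also at 500 mM (7666, 9836, 8661 and 10126 CPM). Epidermis means went the other way, at 1134, 638.6, 1636 and 1355.5 CPM. The neuron, pharynx and intestine lists were not uniform. Of 6 neuron markers, 1 was higher and 2 lower in lin-45 at 50 mM, and none higher and 1 lower at 500 mM. With salt, 1 rose and 4 fell in N2, and 1 rose and 3 fell in lin-45. Of 5 pharynx markers, none was higher and 1 lower in lin-45 at 50 mM, and 1 higher and none lower at 500 mM. With salt, 1 rose and 2 fell in N2, and 2 rose and none fell in lin-45. Of 5 tested intestine markers, 2 rose and 2 fell in N2. Among them act-5 (a microvillar actin) fell by 1.28 ± 0.09 on the log2 scale. For elt-2, the intestinal master regulator, the change was -0.03 ± 0.10 (edgeR adjusted p = 0.771). Of 12 markers of maternal and early embryonic RNA, 5 rose and none fell in N2 and 7 rose and none fell in lin-45. Their summed level was 82.8 in both N2 50 mM libraries, 87.6 to 88.0 CPM for lin-45 at 50 mM, 110.9 to 143.5 for N2 at 500 mM, 136.3 to 173.1 for lin-45 at 500 mM, and 118.0 to 259.1 for preconditioned embryos. No listed intestine or maternal marker was at 0 over all libraries, and the part of cell composition or stage in the F-box A values was not tested.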

How the data were processed

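Poly(A)-selected RNA of 10 libraries of embryos was sequenced. For each gene and library the authors deposited an expected count from RSEM without normalization, an FPKM value, its log2 value, equal to log2(FPKM + 1), and, per the file headers, a mean and a variance score of the log2 values. Tools named, per the submitters' processing notes, are RSEM 1.2.15, DESeq 1.10.1, BWA 0.6.1 and bedtools 2.25.0, with build ce10. For the order of the steps, the annotation and the strand setting, a statement is not given in the sources used here.

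Expected counts were rounded and tested with edgeR 4.0.16 (R 4.3.3) by quasi-likelihood after TMM scaling (factors 0.923 to 1.083), in 1 fit of 5 groups and 10 libraries, over 14802 genes with at least 1 CPM in 2 libraries. The threshold is a Benjamini-Hochberg adjusted p under 0.05 over all tested genes. SE is the absolute log2 change divided by the square root of the F statistic. CPM values are TMM-scaled. The common dispersion of 0.0173 corresponds to a variation of 13.1% between replicates. The script was checked on simulated data. DESeq2 1.42.0, other scalings, filters and sample sets and a replicate term were tried as alternatives. Exon and codon numbers were matched by name in the Ensembl WBcel235 annotation for 169 of 192 members, and coordinates are those of the deposited table.

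Members and lists were chosen with earlier results of these data known. Values in every library were given for members among the 6 with the highest mean CPM, for up to 4 highest and 4 lowest changes past the threshold per comparison with a higher-group mean of 2 CPM or more and without overlap, for members with a known role, and for up to 3 genes per list with the smallest p. Others were named only where they define a run, a threshold or an extreme, after their values were seen. The labels do not say whether replicates are separate cultures, so p-values measure the spread between these libraries. With 2 libraries a group, an exact permutation test cannot go below p = 0.333.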

Additional observations from a re-analysis of the deposited data

Results flagged for a closer look

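The salt response differed between lin-45 and N2 in the interaction test for 15 of 115 F-box A genes. A more positive change in lin-45 was called for 7.83% of members, against 12.2% of all tested genes. A more negative one was called for 5.22%, against 14.3%. Every call among the named members was lost in at least 1 fit with 1 library left out. The log2 difference (lin-45 minus N2) was positive for fbxa-74 (2.01), fbxa-41 (1.72), fbxa-166 (1.38), fbxa-192 (1.22), fbxa-219 (1.06), fbxa-59 (1.03), fbxa-60 (1.02), fbxa-141 (0.91) and fbxa-105 (0.84). It was negative for fbxa-15 (-1.70), fbxa-145 (-1.39), fbxa-216 (-0.91), fbxa-11 (-0.85), fbxa-90 (-0.82) and fbxa-65 (-0.81).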

How the results depend on the processing

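The count of members called in N2 after salt was 57 to 83 with 1 library left out (77 with all), in lin-45 66 to 87 (80), for lin-45 against N2 at 50 mM 26 to 56 and at 500 mM 6 to 28, for preconditioned against N2 500 mM 6 to 24 and against N2 50 mM 45 to 70, and for the interaction 1 to 25. Calls over all tested genes moved in the same fits too. A lone library is assumed to vary like the other groups. A filter of 5 CPM left 64 members to test. It gave 49 calls in N2, 52 in lin-45, 35 for the strains at 50 mM and 43 for preconditioned against N2 50 mM. Of all 11930 genes in that fit, 67.1%, 71.6%, 61.7% and 61.9% were called in the same order. DESeq2 gave 71 calls for N2 salt, 77 for lin-45 salt, and 38 and 23 for the strains at 50 and 500 mM. It gave 17 and 57 for preconditioned against N2 500 mM and N2 50 mM, and 9 for the interaction. Of these, 70, 76, 38, 21, 16, 56 and 7 were shared with edgeR's 77, 80, 53, 23, 19, 67 and 15. Over all tested genes DESeq2 called 59.3%, 64.2%, 47.6%, 8.38%, 21.1%, 53.7% and 23.4%. A fit of only the libraries compared gave 1 member for preconditioned against N2 500 mM, beside 8.53% of all tested genes. The cause of these differences was not tested. With the replicate block the counts were 74, 78, 46, 20, 16, 63 and 10. The order is N2 salt, lin-45 salt, strain at 50 mM, strain at 500 mM, preconditioned against N2 500 mM, preconditioned against N2 50 mM, and interaction. Of all tested genes, that fit called 60.6%, 66.2%, 51.3%, 4.46%, 17.9%, 55.1% and 19.8% in the same order. Correlations of same-numbered deviations ran from -0.229 to 0.146 over 10 pairs of groups, so the numbers were not taken to pair libraries. On the deposited FPKM scale the summed family in N2 500 mM over N2 50 mM was 0.818 (0.911 in CPM), and in lin-45 500 mM over N2 50 mM 1.07 (1.18 in CPM). Of 155 calls of the named members, none reversed under any setting. In the fits with 1 library left out, 1334 results stayed past the threshold and 216 did not, and under the other settings 998 did and 50 did not. Depth limits the 77 untested members and the 14 with a mean under 1 CPM.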
